A study of Homo sapiens with 12 samples.

Results

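EA.hy926 cells, a human endothelial line, were compared between cultures given the copper chelator TEPA and then low oxygen and cultures given neither. The comparison was defined by its labels: the 3 libraries labelled TEPA plus hypoxia against the 3 control libraries, 6 of the 12 libraries in the series. Only these 6 set the filter on low counts, the scaling and the spread. The TEPA+hypoxia cultures received 50 µM TEPA, a synthetic polyamine that binds copper, for 16 h and were then moved to 1% oxygen for 8 h. The controls received no TEPA and were held at normal oxygen. The remaining libraries are 3 of hypoxia alone and 3 of TEPA at normal oxygen. The TEPA libraries were used to divide the joint change into a chelator step and an oxygen step. Otherwise both sets entered only alternative settings, given under the dependence on processing. Because both treatments differ between the groups at once, their parts cannot be told apart from these 6 libraries alone.

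EA.hy926 is a hybrid of umbilical vein endothelial cells with A549 lung carcinoma cells, so it carries epithelial as well as endothelial expression and stands for 1 line. The labels do not say that replicates came from separate cultures, and every p-value here measures only the spread between these libraries, which may be technical.

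When oxygen falls, prolyl hydroxylases no longer mark the HIF alpha subunits for destruction. The subunits then pair with ARNT and bind the short DNA core ACGTG near genes of glucose uptake, glycolysis, vessel growth and matrix modification. NRF2 is a different stress factor: KEAP1 holds it back until oxidants or electrophiles release it, and it then drives genes of glutathione synthesis, quinone reduction, heme breakdown and iron storage. Metallothioneins are small cysteine-rich proteins that bind zinc and copper, and their genes are read out by the metal-sensing factor MTF1, so their messenger RNA is often used as a gauge of available metal.

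Library totals ran from 15977762 to 21049891 counts, and 3 counts, taken as the floor, corresponded to 0.145 to 0.186 CPM (counts scaled to a common library size, with TMM factors throughout). The floor covers counting error only. Log2 levels correlated at 0.987 to 0.994 within groups and at 0.976 to 0.990 between groups, across genes, which are not independent replicates. Libraries of a group were unevenly alike. Chi-square per degree of freedom over genes, which grows as 2 libraries differ beyond counting error, was 1.71 for TEPA+hypoxia 1 and 2. It was 18.1 and 16.0 for their pairs with TEPA+hypoxia 3, and 5.40 to 17.1 among the controls. Control 3 and TEPA+hypoxia 3 lay at the 2 ends of the leading principal component (45.5% of the variance), at -31.0 and 34.4. They also differed in opposite directions by base composition: the rank correlation across genes of a gene's GC content with its deviation from the mean of the 6 libraries was 0.44 in control 3 and -0.40 in TEPA+hypoxia 3. Control 2 stood at -0.28, and the other libraries at 0.06 to 0.17. The same correlation with gene length was -0.43 in control 3 and 0.48 in TEPA+hypoxia 3. It was -0.23 in control 1, 0.19 in control 2, -0.16 in TEPA+hypoxia 1 and -0.03 in TEPA+hypoxia 2. Genes called higher had a median length of 3847 bases and genes called lower 2805, beside 3464 over all tested genes. The part of base composition and length in the gene results was not tested, and counts after a correction for GC content and gene length are given beside several of the gene groups. Endothelial identity was present, with PECAM1 at 587 to 648 CPM and CDH5 at 689 to 764 CPM over the 6 libraries, while the endothelial markers CLDN5 and EMCN were listed at 0. The epithelial keratin KRT7 stood at 3486 to 4869 CPM, CDH1 was listed at 0, and so were the fibroblast collagen COL3A1 and the leukocyte genes PTPRC and CD3E. A listing at 0 was not read as silence, because genes that nearly every cell uses were also there: CANX, TXNRD1 and AMD1 each had 1 count over the 6 libraries and HK1 had 0.

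Of 13989 genes tested, 166 rose and 85 fell in TEPA+hypoxia against control (edgeR quasi-likelihood F-test, Benjamini-Hochberg adjusted p under 0.05, the rule for every gene said below to rise, fall or be called). The called genes make up 1.19% of the tested genes for the higher direction and 0.608% for the lower. At an unadjusted p under 0.05 there were 3039 genes, and the median log2 fold change over all tested genes was 0.01. The CPM values of the 2 groups did not overlap in 3957 of the 13989 tested genes. These include all 166 and all 85 called genes, so a gap between the groups adds nothing to a call. Changes were mostly modest: 47 of the 166 genes that rose and 17 of the 85 that fell changed at least 2-fold, and the median sizes on the log2 scale were 0.73 and 0.53. Large changes sat at different levels of expression, with ANGPTL4 among abundant transcripts and CYP1A1 and the mitochondrial transfer RNA TRNT among scarce ones. The counts rested heavily on single libraries: without control 1, 7 genes were called higher and 3 lower, and without TEPA+hypoxia 2, 24 and 9. Without TEPA+hypoxia 1 they were 42 and 21, without control 2, 44 and 31, without control 3, 69 and 39, and without TEPA+hypoxia 3, 143 and 75. The fit without TEPA+hypoxia 3 keeps as its treated group TEPA+hypoxia 1 and 2, the closest pair of libraries. It is therefore a weak check, here and for the gene groups below. After the GC and length correction, which could be run on 12718 genes, 625 genes were called higher and 493 lower. Those 12718 genes hold 121 of the 166 genes called higher and 72 of the 85 called lower. The share of calls in the higher direction was 66.1% on all 13989 genes and 55.9% after the correction. With DESeq2 on the 13989 genes, uncorrected, it was 59.1%, so the shift cannot be put down to the correction alone. The genes called on all 6 libraries and again in each of the 6 fits that leave out a library were ANGPTL4, RSRP1, CLK1, WWC3, CFAP44, SPACA6P-AS and LOC105370496, which were higher, and DUSP4, ABHD4 and LOC105379045, which were lower. The other 241 called genes were not called without control 1.

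**Figure D1:**
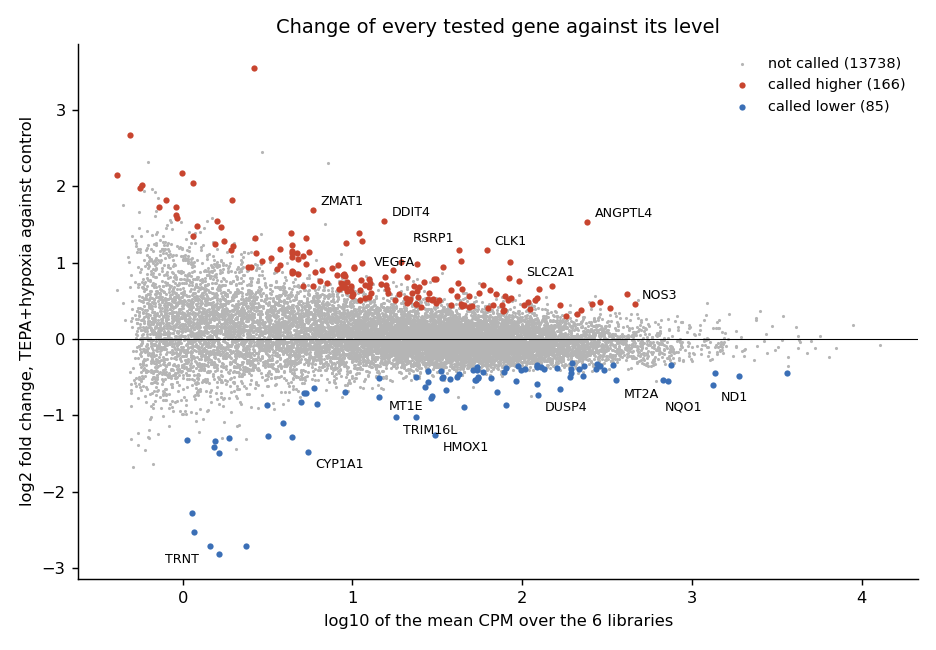
Each point is 1 of the 13989 tested genes, with the log10 of its mean CPM over the 6 libraries on the x axis and its log2 fold change, TEPA+hypoxia against control, on the y axis. The 166 genes called higher are red, the 85 called lower are blue, and ANGPTL4, at 1.53, stands well above other genes of its abundance.

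Targets of HIF lay mostly above 0, and among those that rose were ANGPTL4, DDIT4, VEGFA and SLC2A1. Of 42 tested members of a 50-gene list of HIF targets, 11 rose and 1 fell, against 1.19% and 0.608% of all tested genes, and 35 of the 42 had a log2 fold change above 0. The median of the list was 0.30, beside 0.01 over all tested genes. With the GC and length correction 21 members were higher and 2 lower. Without control 1 a single member, ANGPTL4, was called (1 higher, 0 lower), and without TEPA+hypoxia 2, 6 were higher and 0 lower. Leaving out any of the other 4 libraries gave 8 to 11 members called higher. The 8 untested members did not pass the filter on low counts.

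Among secreted factors, ANGPTL4 (chr19:8364155-8374370, GRCh38), an inhibitor of lipoprotein lipase released by hypoxic cells, measured 130, 115 and 129 CPM in controls 1 to 3 and 369, 382 and 330 CPM in TEPA+hypoxia 1 to 3. The groups were far apart, with the lowest treated library well above the highest control. The change was 2.88-fold (log2 1.53, SE 0.08, adjusted p = 1.38e-04). VEGFA (chr6:43770211-43786487), the main growth factor for endothelial cells, measured 11.8, 12.2 and 9.81 CPM in the controls and 17.6, 21.6 and 20.4 CPM under treatment. Its groups did not overlap either, and it rose 1.76-fold (log2 0.82, SE 0.13, adjusted p = 0.0167). That call was lost without control 1 or without TEPA+hypoxia 2. ADM, which encodes the vasodilator adrenomedullin, was not called (log2 0.39, SE 0.12, adjusted p = 0.113).

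Glucose uptake and glycolysis responded in a few genes only. SLC2A1 (chr1:42925353-42958868), the basal glucose transporter GLUT1, measured 66.2, 68.8 and 78.9 CPM in the controls and 119, 129 and 114 CPM under treatment. No treated library reached down to the controls, and the rise was 1.69-fold (log2 0.76, SE 0.09, adjusted p = 0.0071). ENO2, the neuronal-type enolase, rose by 0.90 (SE 0.13) and HK2, a hexokinase that traps glucose, by 0.65 (SE 0.11) on the log2 scale. Those 3 were the members called among 27 tested glycolysis genes, whose median was 0.00, and 9 were called higher after the GC and length correction. Without control 1 the count was 0 and without TEPA+hypoxia 2 it was 1. PGK1 stood at -0.09 and LDHA at 0.17, neither called. PFKFB4, which makes an activator of phosphofructokinase, measured 6.72, 9.79 and 7.01 CPM in the controls and 11.6, 13.1 and 12.4 CPM under treatment. The 2 groups of PFKFB4 values did not overlap, yet the adjusted p was 0.0656. PDK1, which diverts pyruvate from mitochondria, was not called at 0.45 (SE 0.15).

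The stress brake DDIT4 (chr10:72273924-72276036), an inhibitor of mTORC1, had the largest fold change in the list. It measured 8.12, 5.82 and 9.81 CPM in the controls and 22.9, 24.8 and 21.3 CPM under treatment, again without overlap. The rise was 2.90-fold (log2 1.54, SE 0.17, adjusted p = 0.00573), and the call was lost without control 1. BHLHE40, a transcriptional repressor tied to the circadian clock, rose by 1.00 (SE 0.12) and ANKRD37, a small ankyrin-repeat protein, by 1.12 (SE 0.22). The oxygen-dependent enzymes that HIF itself induces were represented by KDM3A, a histone H3 lysine demethylase, at 0.79 (SE 0.09), and P4HA1, the catalytic subunit of collagen prolyl hydroxylase, at 0.65 (SE 0.07), both called higher. BNIP3L, a mitophagy receptor, rose by 0.44 (SE 0.09, adjusted p = 0.0458), but was not called in any of the 6 fits that leave out a library. Its relative BNIP3 missed the threshold at 0.35 (SE 0.08, adjusted p = 0.0539), as did PLOD2, a lysyl hydroxylase of collagen, at 0.37 (adjusted p = 0.0531), and NDRG1 at 0.32.

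The 1 member that fell was CITED2, which competes with HIF for the coactivators CBP and p300. It measured 226, 222 and 222 CPM in the controls and 159, 155 and 179 CPM under treatment, so that the groups were separate, and it fell by 0.44 in log2 (SE 0.07, adjusted p = 0.0235). It was also the sole call among 15 tested components of the pathway. Transcripts of the subunits were not called: HIF1A stood at -0.08 (SE 0.13), EPAS1, which encodes HIF-2 alpha, at -0.26 (SE 0.11) and ARNT at 0.09. The oxygen sensor EGLN1, itself a HIF target, was not called at 0.29 (SE 0.10), while EGLN3 and CA9, strongly hypoxic genes in many cell types, had 0 and 1 counts over the 6 libraries.

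**Figure D2:**
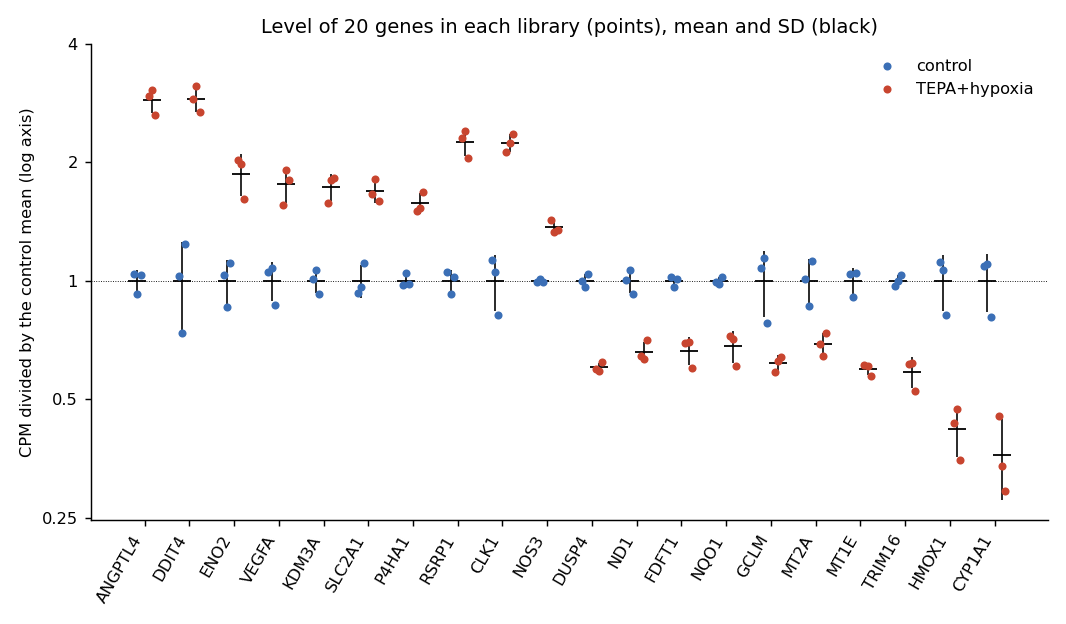
CPM of 20 genes in each library, divided by the mean of the 3 controls, on a log axis, with controls in blue, TEPA+hypoxia in red, and the mean and SD over 3 libraries in black. In every gene drawn the red and blue points are separate, from ANGPTL4 and DDIT4 at the top to HMOX1 and CYP1A1 at the bottom. All 20 are called genes, and the groups were separate in every called gene and in 3957 of the 13989 tested genes.

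To show where the HIF core lies in these genes, the 250 bases before the start site were searched for ACGTG on both strands in the promoter sequences of RefSeq (GRCh38.p14). Of the 11 HIF targets called higher, 9 had a promoter in the table and 7 of these held the motif. Of all 42 HIF targets tested, 32 had a promoter there and 21 held it (65.6%). The motif was in 18.7% of all 27305 promoters, in 23.9% of those of tested genes, in 35.3% of those of genes called higher (36 of 102) and in 25.5% of those of genes called lower (12 of 47). The stretches around the match nearest the start are given on the strand of the gene, 5′ to 3′, with the motif in capitals. Where it lies on the opposite strand it reads CACGT, and a palindrome CACGTG counts on each strand.
ANGPTL4, chr19:8363905-8363945, plus strand: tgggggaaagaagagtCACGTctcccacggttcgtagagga
DDIT4, chr10:72273779-72273823, plus strand: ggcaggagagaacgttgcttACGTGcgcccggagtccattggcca
ENO2, chr12:6914442-6914486, plus strand: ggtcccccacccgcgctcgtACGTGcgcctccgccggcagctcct
ANKRD37, chr4:185396678-185396722, plus strand: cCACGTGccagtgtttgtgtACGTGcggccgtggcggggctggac
BHLHE40, chr3:4979268-4979312, plus strand: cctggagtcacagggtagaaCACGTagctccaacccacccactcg
HK2, chr2:74834059-74834103, plus strand: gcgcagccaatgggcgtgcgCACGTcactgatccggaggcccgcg
P4HA1, chr10:73096928-73096972, minus strand: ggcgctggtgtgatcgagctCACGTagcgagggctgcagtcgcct
The matches shown began between 48 bases (HK2) and 234 bases (ANGPTL4) before the start site. KDM3A and SLC2A1 held no match in this window, and VEGFA and BNIP3L were called without a promoter in the table. These are matches of letters in a window, with no measurement of binding.

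A few regulators of splicing rose, led by RSRP1 and CLK1. RSRP1 (chr1:25242249-25338254), an arginine-serine-rich protein, measured 27.7, 24.3 and 26.8 CPM in the controls and 60.5, 63.2 and 54.1 CPM under treatment. CLK1 (chr2:200853009-200864658), a kinase that phosphorylates SR splicing factors, measured 43.0, 40.1 and 31.2 CPM and 81.1, 85.5 and 89.9 CPM. In both genes the groups were well apart, at 2.25-fold for RSRP1 (log2 1.17, SE 0.09, adjusted p = 0.00167) and 2.24-fold for CLK1 (log2 1.16, SE 0.12, adjusted p = 0.00454). Of 33 tested CLK kinases and SR splicing genes, 6 rose and 0 fell, the others being CLK2 (0.45), PNN (0.46), the RNA helicase DDX17 (0.48) and LUC7L3 (0.33). The list had 13 members higher and 1 lower at an unadjusted p under 0.05, and DESeq2 called 8 higher and 0 lower. The canonical SR proteins were not called, with SRSF1 at 0.12, SRSF3 at -0.22 and SRSF5 at -0.15, so the list's median was 0.12. RSRP1 and CLK1 kept their calls with any 1 library left out, and the list's count was then 2 without each of control 1, control 2, control 3, TEPA+hypoxia 1 and TEPA+hypoxia 2 and 5 without TEPA+hypoxia 3. After the GC and length correction it was 7.

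Of 27 tested immediate early genes, 4 rose and 0 fell. They were DUSP1, a phosphatase of MAP kinases (0.70, SE 0.11, adjusted p = 0.0167), ZFP36, which binds and destabilises AU-rich messenger RNA (0.74, SE 0.13), BTG2 (0.51, SE 0.09), also the 1 call among 21 p53 targets, and the AP-1 subunit JUN (0.41, SE 0.06). DUSP1 measured 103, 104 and 136 CPM in the controls and 187, 191 and 181 CPM under treatment, with a clear gap between the groups. FOS, at 0.94 (adjusted p = 0.14), and EGR1, at 0.01, were not called. The count was 0 without control 1, control 2, TEPA+hypoxia 1 or TEPA+hypoxia 2, 3 without control 3 and 4 without TEPA+hypoxia 3. At an unadjusted p under 0.05, 9 members were higher and 2 lower, and DESeq2 called 6 higher and 0 lower. In the integrated stress response 1 of 32 members rose, CHAC1, which degrades glutathione (log2 1.05, SE 0.15). TNFAIP3, a brake on NF-kB, was the 1 of 20 inflammatory genes that rose (0.53, SE 0.11).

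Targets of NRF2 lay mostly below 0, and of those that fell HMOX1 fell most. Of 29 tested members of a 35-gene list, 12 fell and 0 rose, and 27 of the 29 had a log2 fold change below 0, with a median of -0.40. At an unadjusted p under 0.05, 25 were lower and 0 higher, and DESeq2 called 18 lower and 0 higher. HMOX1 (chr22:35381096-35394207), heme oxygenase, measured 48.4, 46.0 and 35.3 CPM in the controls and 18.8, 20.5 and 15.2 CPM under treatment. The lowest control lay well above the highest treated library, and the level was 2.39-fold lower (log2 -1.26, SE 0.15, adjusted p = 0.00686). NQO1 (chr16:69709401-69726560), a quinone reductase, measured 855, 847 and 884 CPM and 624, 614 and 525 CPM, again apart, and fell by 0.55 in log2 (SE 0.08, adjusted p = 0.0121).

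Other members that fell cover the main arms of the program. In glutathione metabolism GCLM, the modifier subunit of the enzyme that makes its precursor, fell by 0.69 (SE 0.13) and glutathione reductase GSR by 0.43 (SE 0.08). In NADPH supply PGD fell by 0.48 (SE 0.06) and the malic enzyme ME1 by 0.43 (SE 0.08). The ferritin heavy chain FTH1 fell by 0.44 (SE 0.06), the growth regulator OSGIN1 by 0.67 (SE 0.10), the epoxide hydrolase EPHX1 by 0.45, the autophagy receptor SQSTM1 by 0.40 and the sulfiredoxin SRXN1 by 0.35. TRIM16L fell by 1.02 (SE 0.11) and TRIM16, a ubiquitin ligase outside the list, by 0.77 (SE 0.10). TRIM16 and TRIM16L are close copies, so the division of reads between them is uncertain. Those that were not called include the cystine transporter SLC7A11 at -0.75 (adjusted p = 0.094), GCLC at -0.34 and NFE2L2, which encodes NRF2 itself, at 0.03. The count of members that fell was 0 without control 1, 2 without TEPA+hypoxia 2, 5 without TEPA+hypoxia 1, 6 without control 2, 7 without control 3 and 11 without TEPA+hypoxia 3. It was 21 after the GC and length correction.

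The antioxidant response element was searched as TGACNNNGC on both strands in the same windows. It was in 11.0% of all promoters, 12.2% of those of tested genes, 7.84% of those of genes called higher (8 of 102) and 21.3% of those of genes called lower (10 of 47). Of the 12 NRF2 targets that fell, 8 had a promoter in the table and 3 held the motif. Of all 29 NRF2 targets tested, 20 had a promoter there and 4 held it (20%). The matches of the 3 that fell are shown in capitals on the strand of the gene.
ME1, chr6:83431160-83431208, minus strand: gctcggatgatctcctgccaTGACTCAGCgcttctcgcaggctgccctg
GCLM, chr1:93909436-93909484, minus strand: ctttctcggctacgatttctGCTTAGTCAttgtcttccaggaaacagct
PGD, chr1:10398843-10398891, plus strand: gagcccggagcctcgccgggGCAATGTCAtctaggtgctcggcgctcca
The ME1 match lies on the strand of the gene, and the GCLM and PGD matches on the opposite strand. NQO1, OSGIN1, SQSTM1, SRXN1 and EPHX1 held no match in this window.

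Metallothionein messenger RNA fell in 2 of the 3 isoforms tested. MT1E (chr16:56625781-56627112) measured 38.7, 33.6 and 38.9 CPM in the controls and 22.6, 22.5 and 21.2 CPM under treatment. MT2A (chr16:56608584-56609497), the most widely expressed isoform, measured 813, 690 and 903 CPM and 554, 518 and 590 CPM. The 2 groups were separate in both genes, MT1E falling by 0.75 (SE 0.09, adjusted p = 0.00787) and MT2A by 0.53 (SE 0.10, adjusted p = 0.0377). MT1X, at -0.45 (SE 0.10, adjusted p = 0.0607), was not called, nor was the metal sensor MTF1 at 0.26. Reads can be split among these near-identical copies, which makes single isoforms uncertain. MT1F, MT1G and MT1M were listed at 0. Without control 1 or without TEPA+hypoxia 2 neither metallothionein was called, and without control 3 or without TEPA+hypoxia 1 a single one was. MT1E and MT2A were the only calls among 31 tested genes of copper handling: the importer SLC31A1 stood at -0.15 (SE 0.08), the chaperones ATOX1 at -0.23 (SE 0.13) and CCS at -0.01 (SE 0.16), and the copper enzyme SOD1 at -0.18 (SE 0.10). Of 21 genes of iron handling, HMOX1, FTH1 and the mitochondrial iron importer SLC25A28 (-0.50, SE 0.10) fell and 0 rose, with 2 higher and 10 lower at an unadjusted p under 0.05, and 1 higher and 4 lower by DESeq2. The count of iron genes that fell was 0 without control 1 and 1 without TEPA+hypoxia 1 or TEPA+hypoxia 2. The transferrin receptor TFRC, at -0.18, was not called. Of 16 zinc transporters 0 were called by edgeR or by DESeq2, with 0 higher and 1 lower at an unadjusted p under 0.05.

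Transcripts of the mitochondrial genome fell unevenly. Of its 13 messenger RNAs, 5 fell: ND1, ND2, ND3 and ND6, subunits of complex I, and COX2, a copper-binding subunit of cytochrome oxidase. ND1 measured 1625, 1723 and 1495 CPM in the controls and 1038, 1019 and 1139 CPM under treatment, with the groups apart, and fell by 0.60 (SE 0.08, adjusted p = 0.00787). COX2 fell by 0.45 (SE 0.06) and ND6, the messenger read from the opposite strand, by 0.65 (SE 0.09). COX1 stood at -0.08 and ND4 at 0.04, neither called. Among mitochondrial transcripts the transfer RNAs had the largest falls, TRNT at -2.71 (SE 0.31), TRNV at -2.70 (SE 0.39), TRNF at -2.52, TRND at -2.27 (SE 0.33) and TRNL1 at -1.02 (SE 0.15). TRNT measured 2.71, 2.08 and 2.80 CPM in the controls and 0.496, 0.242 and 0.403 CPM under treatment. Those treated values lie close to the floor, and the libraries were made from poly(A)-selected RNA, which does not select mature transfer RNA. The ribosomal RNAs RNR1, at 0.08, and RNR2, at -0.27, were not called. Without control 1 none of these mitochondrial messengers or transfer RNAs was called, and without TEPA+hypoxia 2, 0 messengers and 2 transfer RNAs were. Without TEPA+hypoxia 1 the counts were 2 and 3, without control 2 they were 3 and 5, without control 3 they were 3 and 6, and without TEPA+hypoxia 3 they were 5 and 8. They could not be given a GC and length correction here.

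Nuclear genes of large housekeeping complexes lay slightly below 0 in nearly every member while almost none passed the test. Of 74 tested nuclear genes of the respiratory chain, 72 had a negative value, with a median of -0.25, and 0 were called by edgeR. At an unadjusted p under 0.05, 29 of these were lower and 0 higher, and DESeq2 called 2 lower. Ribosomal protein genes had 79 of 80 negative values and a median of -0.26, with RPL36A called lower (-0.76, SE 0.14). All 31 tested proteasome genes were negative, with a median of -0.27, and PSMB2 fell (-0.32, SE 0.06). Without TEPA+hypoxia 3 the medians were -0.15, -0.14 and -0.20, and with the GC and length correction they were -0.18, -0.18 and -0.22. After that correction 8, 4 and 12 members were called lower. Of 46 DNA replication genes 40 were negative, with a median of -0.19, and 0 were called by edgeR, 25 lower at an unadjusted p under 0.05 and 6 lower by DESeq2. PCNA, the sliding clamp, stood at -0.29 (SE 0.07, adjusted p = 0.063). For 41 genes of mitosis the median was -0.06, edgeR called 0, and 9 were lower and 3 higher at an unadjusted p under 0.05, with 1 higher and 1 lower by DESeq2.

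Cholesterol synthesis showed 3 of 25 members lower and 0 higher, with 22 negative and a median of -0.29. FDFT1, squalene synthase, measured 151, 142 and 148 CPM in the controls and 102, 103 and 88.5 CPM under treatment, with the groups separate. It fell by 0.59 (SE 0.08, adjusted p = 0.0108). ACAT2, which joins acetyl units, fell by 0.49 (SE 0.10) and LSS, lanosterol synthase, by 0.41 (SE 0.09). HMGCS1, which makes the precursor of mevalonate, was not called at -0.39 (adjusted p = 0.0751). The count was 0 without control 1 or TEPA+hypoxia 2, 1 without control 2, control 3 or TEPA+hypoxia 1, 2 without TEPA+hypoxia 3, and 12 after the GC and length correction. At an unadjusted p under 0.05, 16 members were lower and 0 higher, and DESeq2 called 9 lower. Of 16 fatty acid synthesis genes 0 were called by edgeR or by DESeq2, 1 higher and 4 lower at an unadjusted p under 0.05.

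CYP1A1 (chr15:74719542-74725528), the monooxygenase that marks activity of the aryl hydrocarbon receptor, fell strongly. It measured 8.80, 8.90 and 6.52 CPM in the controls and 3.66, 2.72 and 2.36 CPM under treatment, and the highest treated library stayed below the lowest control. The level was 2.78-fold lower (log2 -1.47, SE 0.20, adjusted p = 0.0114). That call ended without control 1 or without TEPA+hypoxia 2. NQO1 was the other call among 9 tested genes of that axis, and AHRR, the receptor's repressor, was not called at 0.13 (SE 0.11).

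Genes of endothelial identity and vessel signalling changed in single members. NOS3 (chr7:150991017-151014588), endothelial nitric oxide synthase, measured 387, 394 and 386 CPM in the controls and 557, 519 and 523 CPM under treatment. The controls were close together and the treated libraries all lay higher, a rise of 1.37-fold (log2 0.45, SE 0.06, adjusted p = 0.0113). SOX17, a transcription factor of arterial cells, measured 6.91, 7.60 and 7.31 CPM and 4.65, 4.60 and 4.78 CPM, also without overlap, and fell by 0.63 (SE 0.13, adjusted p = 0.0478). The NOS3 call was lost without control 1, TEPA+hypoxia 1 or TEPA+hypoxia 2, and the SOX17 call in each of the 6 fits that leave out a library. Of 20 tested endothelial markers these were the 2 calls, and the summed level of 22 markers was 5486 to 6453 CPM in the controls and 5501 to 5870 CPM under treatment, which overlap. Among 35 genes of angiogenic signalling VEGFA, NOS3 and the Notch ligand JAG1 (0.39, SE 0.08, adjusted p = 0.0435) rose and 0 fell. There, 7 were higher and 3 lower at an unadjusted p under 0.05, and DESeq2 called 3 higher and 0 lower. Of the 3 calls, 0 were made without control 1 or TEPA+hypoxia 2 and 1 without TEPA+hypoxia 1. The VEGF receptors FLT1 (0.42, SE 0.15) and KDR (-0.12) were not called.

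On the epithelial side of the hybrid, the summed level of the 21 epithelial markers overlapped between groups, at 5930 to 7828 CPM in the controls and 6240 to 7288 CPM under treatment. Of 5 tested markers of fibroblasts and mural cells ACTA2, smooth muscle actin, rose (0.68, SE 0.14, adjusted p = 0.0487). The summed level of all 15 markers of that list was 88.9 to 95.4 CPM in the controls and 99.6 to 114 CPM under treatment, which do not overlap. Most of that sum was 1 gene, RGS5, at 81.7, 79.3 and 81.8 CPM in the controls and 84.9, 91.7 and 100 CPM under treatment. RGS5 was not called (log2 0.19, SE 0.08, adjusted p = 0.215), nor was TAGLN at 0.08 (SE 0.26), so the sum does not show a rise across the list. In a culture of 1 line, fewer cells of a kind and less RNA per cell cannot be told apart.

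**Figure D3:**
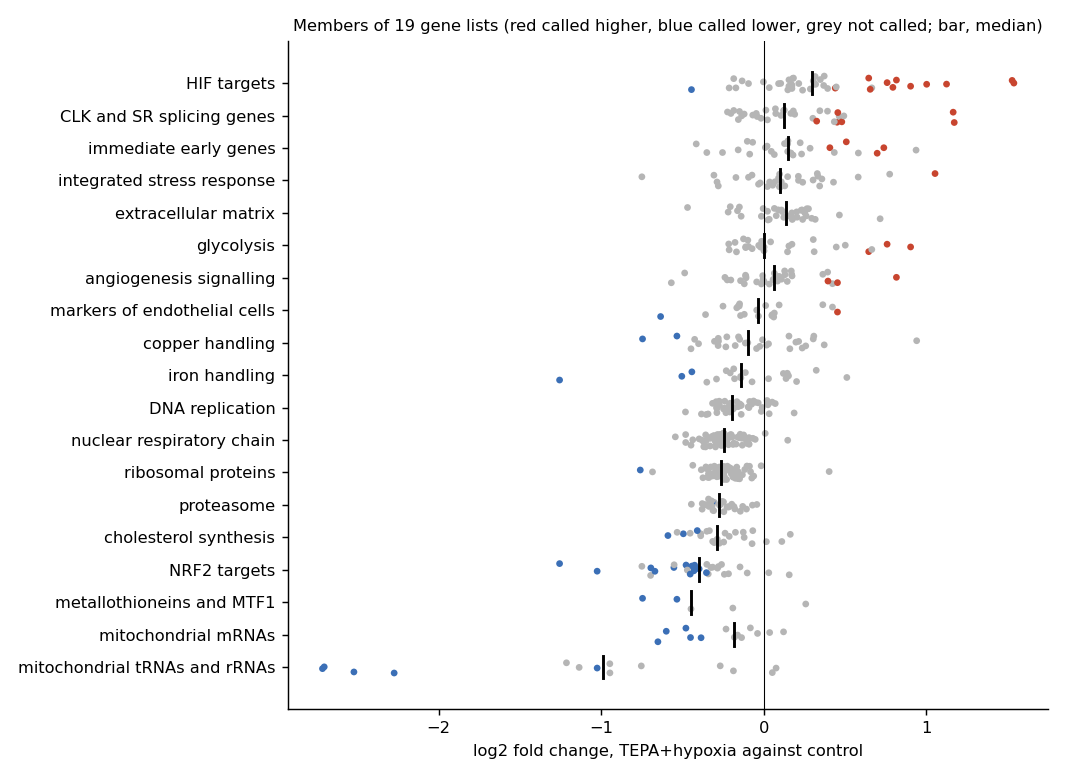
Log2 fold changes, TEPA+hypoxia against control, of the tested members of 19 gene lists, with genes called higher in red, called lower in blue, not called in grey, and the median as a black bar. The HIF targets spread to the right with 11 red points and a median of 0.30, the NRF2 targets to the left with 12 blue points and a median of -0.40, and the respiratory chain, ribosomal and proteasome lists form narrow grey bands left of 0.

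Some lists moved in few or no members. In polyamine metabolism the spermine oxidase SMOX fell (-0.49, SE 0.08), 1 of 18. Of 37 lysosome and autophagy genes GABARAPL1, which builds autophagosomes, (-0.52, SE 0.08) and SQSTM1 fell and BNIP3L rose. P4HA1 was the 1 call among 16 prolyl and lysyl hydroxylases and lysyl oxidases, and KDM3A the 1 call among 19 JmjC demethylases. Of 34 extracellular matrix genes 0 were called by edgeR, although 8 were higher and 2 lower at an unadjusted p under 0.05 and DESeq2 called 2 higher. COL5A1 (0.72, adjusted p = 0.0503) and the perlecan gene HSPG2 (0.47, adjusted p = 0.0524) lay nearest to the threshold. For 23 genes of folding in the endoplasmic reticulum and 24 heat shock genes edgeR called 0, with 2 and 4 higher and 1 and 3 lower at an unadjusted p under 0.05, and DESeq2 called 0 of the former and 2 higher and 1 lower of the latter. The 17 snoRNA host genes and 2 leukocyte markers tested also had 0 calls, by edgeR and by DESeq2, with 1 and 0 higher and 2 and 0 lower at an unadjusted p under 0.05.

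Among all protein-coding genes of at least 5 CPM, the largest rises were in ZMAT1, a zinc finger gene, DDIT4, ANGPTL4 and WNK4, a kinase that regulates salt transport. ZMAT1 measured 3.72, 2.67 and 1.83 CPM in the controls and 7.63, 7.81 and 11.4 CPM under treatment, a change of 1.69 on the log2 scale (SE 0.26) without overlap. WNK4 rose by 1.32 (SE 0.14), WWC3, a member of the KIBRA family, by 1.02 (SE 0.10), CFAP44, a ciliary protein, by 1.00 (SE 0.10), the nuclease DNASE1 by 0.99 and SEMA4B, a semaphorin, by 0.93. Other large falls were in ABHD4, a lipid hydrolase, at -0.89 (SE 0.09), and HS3ST1, a heparan sulfate sulfotransferase, at -0.85 (SE 0.15). DUSP4, a phosphatase of MAP kinases in the nucleus, measured 153, 148 and 160 CPM in the controls and 91.9, 91.0 and 95.6 CPM under treatment. The spread within each group of DUSP4 was small against the gap, and it fell by 0.73 (SE 0.07, adjusted p = 0.00421).

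The 3 TEPA libraries at normal oxygen allowed the joint change to be divided into a chelator step, TEPA against control, and an oxygen step, TEPA+hypoxia against TEPA, in a fit of 9 libraries and 14225 genes. The steps share the TEPA libraries, and each shares a group with the joint comparison, so their values are set side by side and not correlated. The chelator step had 0 genes called higher (0% of those tested) and 4 called lower (0.0281%) by edgeR: MT1E, HMOX1, TRIM16 and TRIM16L. At an unadjusted p under 0.05 it had 497 higher and 489 lower, and DESeq2 called 7 and 18. The oxygen step had 185 genes called higher (1.3%) and 119 lower (0.837%), and DESeq2 called 357 and 338. The step counts also moved with single libraries: without TEPA 2 the oxygen step had 35 and 18 calls and the chelator step 0 and 0.

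HIF targets had the larger median in the oxygen step, which compares oxygen levels only in the presence of TEPA. Their median was 0.00 in the chelator step and 0.27 in the oxygen step, with ANGPTL4 at -0.04 (SE 0.08) and 1.56 (SE 0.08), DDIT4 at 0.08 and 1.45, VEGFA at 0.14 and 0.67, SLC2A1 at 0.07 and 0.69, and KDM3A at -0.05 and 0.84. RSRP1, at -0.04 and 1.21, and CLK1, at -0.20 and 1.36, had the same form, as did CYP1A1 among genes that fell, at 0.06 and -1.54. Metallothioneins had the opposite arrangement: MT1E stood at -0.78 (SE 0.09, adjusted p = 0.0088) in the chelator step and 0.03 (SE 0.09) in the oxygen step, and MT1X at -0.52 and 0.07. MT2A was divided, at -0.22 and -0.32. NRF2 targets had both steps negative, with medians of -0.17 and -0.18. HMOX1 stood at -0.91 (SE 0.13) and -0.35 (SE 0.14), NQO1 at -0.31 and -0.24, GCLM at -0.58 and -0.12, and ME1 at -0.43 and 0.00. NOS3 was at 0.30 and 0.16, neither step called, although the joint change was called. EPAS1, not called in the joint change, stood at 0.23 (SE 0.10) and -0.49 (SE 0.10), and was called lower in the oxygen step (adjusted p = 0.022 by edgeR). HIF1A stood at -0.02 and -0.07, neither called. Of the 15 tested components of the HIF pathway, 2 were called lower and 0 higher in the oxygen step. Mitochondrial transfer and ribosomal RNAs had medians of 0.05 and -1.02, and ND1 stood at -0.08 and -0.52. Across all called genes the chelator step was the larger in its direction for 23 of the 166 that rose and for 20 of the 85 that fell. The difference between the steps of a gene was not tested.

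**Figure D4:**
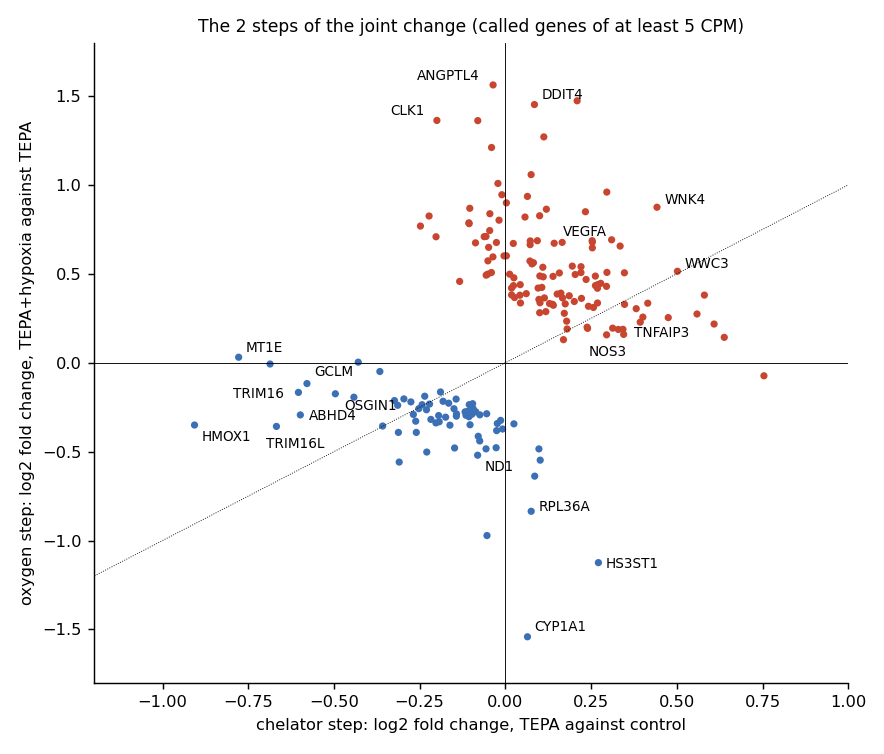
Chelator step on the x axis and oxygen step on the y axis, both as log2 fold changes from the fit of 9 libraries, for the 195 called genes with a mean of at least 5 CPM, 125 called higher in red and 70 called lower in blue. The dotted line marks equal steps. ANGPTL4 and CYP1A1 lie near the vertical axis, MT1E near the horizontal axis, and HMOX1 at the lower left, where both steps are negative.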

How the data were processed

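Messenger RNA of EA.hy926 cells was sequenced from poly(A)-selected, directional libraries, per the labels' protocols. The authors deposited whole-number read counts per gene symbol, used as deposited. Alignment used HISAT2 2.1.0 and GRCh38, with DESeq named, per the submitters' processing notes. Which read counter, annotation and strand rule were used is not given in the sources used here, so a gene and its antisense partner cannot be told apart.

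Counts of 6 libraries were filtered (filterByExpr), which kept 13989 genes with 99.9% of counts, scaled by TMM and tested with edgeR 4.0.16 (quasi-likelihood F-test, R 4.3.3). Scripts were tested on simulated data. Alternatives used DESeq2 1.42.0, limma-voom 3.58.1, other scalings and filters, a GC and length spline correction (GENCODE 29) and each library left out. Of 51141 symbols, 40269 matched RefSeq directly and 1992 through older symbols. Genes were named by size of change (14 per direction and 4 noncoding, at least 5 CPM), from 30 listed genes and as the 4 members of lowest p per list. Other genes in the text were chosen after their values were seen. The comparison and the 36 gene lists were chosen with earlier results of these data known. Some genes that met these rules are not reported here.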

Additional observations from a re-analysis of the deposited data

How the results depend on the processing

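Counts of genes called in TEPA+hypoxia against control moved with the settings. The 166 higher and 85 lower became 630 and 461 with no filter, 391 and 271 with DESeq2, 447 and 346 with the spread shared with the TEPA libraries, 21 and 17 with all 12 libraries, and 625 and 493 with the GC and length correction. RLE scaling gave 161 and 86, upper quartile scaling 191 and 66, a minimum of 1 CPM 170 and 86, and limma-voom 158 and 81. Leaving out a library gave 7 to 143 higher and 3 to 75 lower, the most without TEPA+hypoxia 3, where the closest pair of treated libraries remains. The replicate block gave 2 and 0, and 49 and 16 with the GC and length correction. Deviations of same-numbered libraries from their group means correlated at -0.04, -0.21 and -0.37, and those of differently numbered libraries at -0.27 to 0.37. With 3 libraries per group the deviations within a group depend on each other, so these values cannot decide whether numbers mark pairs. The main fit does not treat numbers as pairs. For TEPA against control (0 higher, 4 lower) the counts were 21 and 32 with no filter, 7 and 18 with DESeq2, 0 and 1 with the replicate block, and 0 to 3 and 0 to 10 when leaving out a library. For TEPA+hypoxia against TEPA (185 and 119) they were 727 and 739 with no filter, 357 and 338 with DESeq2, 35 and 18 with the replicate block, and 35 to 356 and 18 to 302 when leaving out a library. Of 251 calls, 74 were lost in each of the 6 fits that leave out a library. Among 164 named genes no called value changed sign in any of the 17 alternatives. The cause of these moves was not tested. Depth limits the mitochondrial transfer RNAs and other genes near 1 CPM.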

Other observations

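Noncoding and uncharacterised transcripts made up 41.0% of the genes that rose (68 of 166) and 22.4% of those that fell (19 of 85), beside 17.9% of all tested genes. These groups of symbols were looked at after their values were seen. Of 1057 tested symbols beginning with LOC, 42 rose and 3 fell, against 1.19% and 0.608% of all tested genes. Their median level was low, below the 2.07 CPM of the small nucleolar RNAs described next. Among LOC symbols, only LOC105370496, which rose, and LOC105379045, which fell, were called in each of the 6 fits that leave out a library. The other LOC calls were lost without control 1. Several well-known nuclear transcripts were among the noncoding ones that rose. NEAT1, the scaffold of paraspeckles, measured 327, 319 and 344 CPM in the controls and 519, 548 and 421 CPM under treatment (log2 0.59, SE 0.10, adjusted p = 0.0234 by edgeR). KCNQ1OT1, the imprinted antisense transcript of the KCNQ1 locus, rose by 1.13 (SE 0.15), and MEG3, another imprinted RNA, by 0.44 (SE 0.09). SPACA6P-AS had the largest change of all, at 0.338, 0.356 and 0.548 CPM in the controls and 4.65, 5.09 and 4.78 CPM under treatment (log2 3.54, SE 0.24, adjusted p = 4.98e-04 by edgeR). HNRNPU-AS1 rose by 1.38 (SE 0.16). It is counted as noncoding by its symbol only, since the symbol matched the protein-coding RefSeq gene HNRNPU. Reads of symbols named as antisense cannot be assigned to a strand here.

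Small nucleolar RNAs, which guide chemical marks on ribosomal RNA and sit inside introns of host genes, went the other way. Of 135 tested, 7 fell and 0 rose, against 0.608% and 1.19% of all tested genes, 100 were negative, and the median was -0.31. Their median level was 2.07 CPM. Of the 6 fits that leave out a library, SNORD4A was called in 5, SNORD14B in 4 and SNORD36B in 0. SNORA62, SNORD38A, SNORD45A and SNORD100 were called in 1 each. SNORD4A measured 5.85, 6.88 and 5.91 CPM in the controls and 2.73, 2.85 and 2.07 CPM under treatment, a fall of 1.28 on the log2 scale (SE 0.18), and SNORD14B fell by 1.27 (SE 0.17). The median of these RNAs was -0.04 in the chelator step and -0.14 in the oxygen step. Like transfer RNA, they are not selected by poly(A). RBM3, a cold-inducible RNA-binding protein, fell by 0.54 (SE 0.07), at 429, 409 and 437 CPM in the controls and 305, 288 and 284 CPM under treatment.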
